A study of Mus musculus with 24 samples.

Results

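Small leucine-rich proteoglycans (SLRPs) are the subject here, as 6 genes: Dcn (decorin), Bgn (biglycan), Lum (lumican), Fmod (fibromodulin), Prelp (proline/arginine-rich end leucine-rich repeat protein) and Ogn (osteoglycin). They are 6 of the 12393 genes measured and were taken by symbol, from the 15 probe sets annotated to exactly 1 of these symbols among the 20380 probe sets with 1 symbol. Each gene is given by its probe set with the highest mean, and the other 9 probe sets serve as a check. Their NCBI gene IDs are 13179 for Dcn, 12111 for Bgn, 17022 for Lum, 14264 for Fmod, 116847 for Prelp and 18295 for Ogn. Lung RNA of 24 female BALB/C mice, 8 to 10 weeks old, was measured on 1 Affymetrix array per mouse, in 8 groups of 3 mice. All doses went into the nose on days 0 and 13, and lungs were taken 18 hours after the second. In 3 groups the mice received 150 ug of diesel exhaust particles (engine soot) of the kinds labelled NDEP, ADEP or CDEP, and saline mice were their control. In 3 further groups the same particles were given with 20 ug of ovalbumin (OVA, an egg white protein used as a model allergen), and OVA mice without particles were their control. The labels mark the 4 OVA groups as sensitized and the 4 others as not. Levels are log2 of the deposited intensity, so a negative log2 fold change means a lower level than in the control.

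SLRPs are secreted proteins of the extracellular matrix, made mainly by fibroblasts and related connective tissue cells. Their curved leucine-rich repeat domain binds collagen fibrils and sets how thick and how regularly spaced the fibrils are, and most members carry sugar chains of the chondroitin, dermatan or keratan sulfate type. Decorin and biglycan also bind TGF-beta, and pieces released from injured matrix can signal through Toll-like receptors. In the lung they lie around airways, vessels and the pleura and in the alveolar wall.

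The genes lie in clusters. By the order of protein-coding genes in RefSeq's GRCm38.p6 annotation, Dcn is next to Lum on chromosome 10, Prelp is next to Fmod on chromosome 1, and Ogn is next to Omd on chromosome 13. Promoters of 4 of the 6 members were found in the RefSeq promoter table of that build, each running from 250 bases before the start of transcription to 50 bases after it. Those of Bgn and Prelp are shown because these members were the most alike from array to array, and that of Ogn because it was called (adjusted p under 0.05) for all 3 particles when both OVA states were averaged. They lie at chrX:73483351-73483650 on the plus strand, chr1:133921352-133921651 on the minus strand and chr13:49607765-49608064 on the plus strand. Capitals mark matches to the motifs searched, on either strand.
Bgn: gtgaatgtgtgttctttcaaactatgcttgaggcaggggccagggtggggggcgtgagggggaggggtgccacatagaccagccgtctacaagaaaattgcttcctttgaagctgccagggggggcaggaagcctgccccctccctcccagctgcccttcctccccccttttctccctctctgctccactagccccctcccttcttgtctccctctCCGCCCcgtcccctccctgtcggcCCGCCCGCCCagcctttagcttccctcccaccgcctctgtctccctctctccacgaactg
Prelp: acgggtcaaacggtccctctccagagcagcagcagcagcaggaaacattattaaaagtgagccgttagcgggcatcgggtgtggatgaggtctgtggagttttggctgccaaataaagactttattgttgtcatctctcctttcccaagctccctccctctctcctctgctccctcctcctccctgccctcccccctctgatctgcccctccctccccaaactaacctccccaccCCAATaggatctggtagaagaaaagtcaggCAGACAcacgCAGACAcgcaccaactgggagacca
Ogn: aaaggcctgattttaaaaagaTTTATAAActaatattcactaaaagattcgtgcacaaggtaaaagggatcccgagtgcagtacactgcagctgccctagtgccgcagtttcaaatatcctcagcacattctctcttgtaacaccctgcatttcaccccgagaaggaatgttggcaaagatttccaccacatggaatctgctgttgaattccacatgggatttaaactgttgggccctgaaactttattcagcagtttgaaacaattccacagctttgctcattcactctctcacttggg
The TATA box was searched as TATAAA and the CCAAT box by its name. An Sp1 site was searched as GGGCGG, an AP-1 site as TGANTCA and a SMAD site as CAGACA. Among 32851 mouse promoters of the same length a TATA box was found in 13.6%, a CCAAT box in 37.4%, an Sp1 site in 35.7%, an AP-1 site in 7.81% and a SMAD site in 21.0%. The Bgn window held the Sp1 letters 3 times on the other strand, at positions -34, -10 and -6 from the start, the last 2 overlapping. The Prelp window held a CCAAT box at -15 and the SMAD letters at 16 and 26. The Ogn window held TATA box letters at -227 and, overlapping them on the other strand, at -229. The Fmod window held a CCAAT box at 35 only, and no window held the AP-1 letters, so these 4 promoters shared no motif of this set across all of them. A match is a description of the letters and was not tested as a binding site.

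The 24 arrays had like median intensities (72.2 to 75.5), and the highest correlation of any pair of arrays was 0.996, so all 24 counted as separate samples. With 3 arrays in each group, precision is limited. The tissue label was checked with 14 lung epithelium markers, all above the 25th percentile of the arrays, and the surfactant gene Sftpc lay between 13.4 and 13.9 log2 on the 3 saline arrays. Marker genes of heart muscle and fat were present too. The heart gene Myh6 averaged 9.11 log2 in CDEP with OVA lungs and 10.3 log2 in saline lungs, and the fat gene Adipoq averaged 4.29 and 6.56 log2 in the same groups. Saline replicate 1 had a Gapdh signal at the 3' end 0.68 log2 above that at the 5' end, the widest gap of the 24. The next widest was 0.58 log2 in CDEP with OVA replicate 3, which had the widest gap by Actb. Saline replicate 1 also had the highest mean log2 level of fibroblast markers of the 24 arrays (9.66). Its mean levels of lung epithelium (10.92) and leukocyte markers (7.07) were the lowest. It held the highest value of all 24 arrays for 5 of the 6 members, and the cause was not tested. The differences of NDEP, ADEP and CDEP lungs from saline are therefore given without this array for each member. No member was dim on any array, that is below the array's 25th percentile (4.45 to 4.65 log2).

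Saline lungs had the highest group mean for 5 of the 6 members and OVA lungs for Fmod, but without saline replicate 1 saline was highest for 2, Dcn and Prelp. Without it Lum was highest in ADEP lungs (6.94 log2, against 6.92 in saline lungs), Bgn in NDEP lungs (11.74, against 11.73) and Ogn in OVA lungs (10.80, against 10.64). CDEP with OVA lungs had the lowest for Dcn, Lum and Bgn. Of 36 differences between a particle group and its own control (6 members, 3 particles, with and without OVA), 34 were below 0, against 49.4% of the same differences over all genes. Those 36 share control arrays within each OVA state, so they are not 36 independent results. Without saline replicate 1, the differences from saline of Lum in ADEP lungs and of Bgn in NDEP lungs were also above 0. By limma's moderated F test over the 8 groups, Dcn (adjusted p = 0.0007395) and Lum (adjusted p = 0.007207) differed, against 7.61% of all genes called. With heart and fat marker covariates neither was called (Dcn adjusted p = 0.3443, Lum 0.3726), while Ogn (0.02802) and Bgn (0.03487) were. With a fibroblast marker covariate Dcn (0.05269) and Lum (0.1575) were again not called, while Ogn (0.003634) and Prelp (0.04856) were, and with a leukocyte marker covariate Dcn (0.01445) was and Lum (0.08872) was not. Bgn (0.05139), Ogn (0.06342), Prelp (0.08415) and Fmod (0.4756) had adjusted p-values above 0.05 in that test. Over all 23 pairwise, averaged and interaction comparisons, 14 of 138 member results were called at an adjusted p of 0.05, all of them lower and 0 higher, against 1.85% of all gene results called in either direction and 0.594% called lower. The averaged comparisons reuse the arrays of the pairwise ones, so the 138 results are not independent. The 6 members were chosen with earlier results of these data known, so their shares beside all genes are descriptions and no test. RNA of whole lung cannot tell fewer cells of a type from less RNA per cell.

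**Figure D1:**
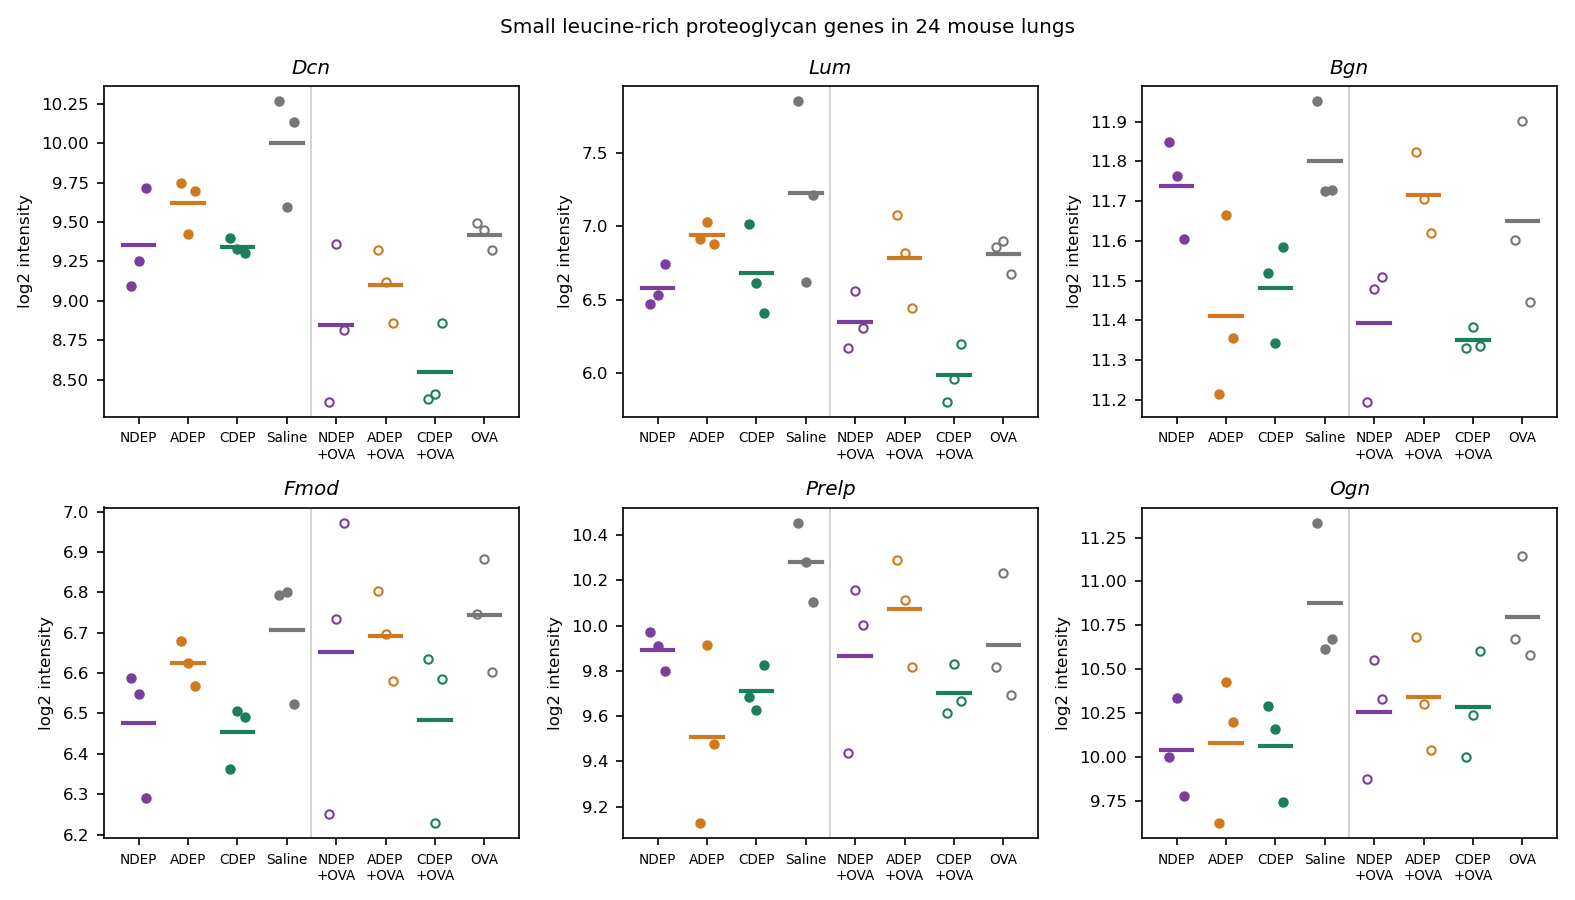
Level of each SLRP gene in every lung (points, log2 intensity) with the group mean (line), for NDEP, ADEP, CDEP and saline on the left of each panel and for the same particles with OVA and OVA alone on the right (open points). Dcn and Lum are lowest in CDEP with OVA lungs, and saline lungs have the highest group mean for 5 of the 6 genes, or for 2 without saline replicate 1.

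Decorin binds collagen fibrils and limits their sideways growth, and it was the member that differed most between groups. Without OVA, Dcn was 9.09, 9.25 and 9.72 log2 in NDEP lungs, 9.74, 9.42 and 9.70 in ADEP lungs and 9.40, 9.33 and 9.30 in CDEP lungs, against 10.27, 9.59 and 10.13 in saline lungs. With OVA it was 8.36, 9.36 and 8.81 log2 in NDEP lungs, 9.32, 9.12 and 8.86 in ADEP lungs and 8.38, 8.41 and 8.86 in CDEP lungs, against 9.49, 9.45 and 9.32 in OVA lungs. All CDEP with OVA lungs lay below all OVA lungs, and all CDEP lungs lay below all saline lungs, while NDEP lungs overlapped both controls. From high to low the group means ran saline, ADEP, OVA, NDEP, CDEP, ADEP with OVA, NDEP with OVA and CDEP with OVA, and the arrays of all 7 neighbouring pairs in this order overlapped.

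Dcn fell in CDEP with OVA lungs, which averaged 8.55 ± 0.27 log2, against 9.42 ± 0.09 in OVA lungs (SD, n = 3 each), a log2 fold change of -0.87 ± 0.20 (SE, limma adjusted p = 0.009899). In that comparison 2 of the 6 members were called, Dcn and Lum, against 4.79% of all genes, and 3 did not overlap, against 11.6% of all genes that lay lower without overlap. The call was lost without OVA replicate 2 (-0.86, limma adjusted p = 0.0526), CDEP with OVA replicate 1 (-0.79, 0.0574) or CDEP with OVA replicate 2 (-0.80, 0.0724). With heart and fat, fibroblast or leukocyte marker covariates the call was lost too. CDEP with OVA lungs were also below CDEP lungs, which averaged 9.34 ± 0.05 log2 (-0.80 ± 0.20, limma adjusted p = 0.03059). Dcn was the only member called between those groups, where 3.58% of all genes were called, and Dcn and Lum were the 2 members without overlap, against 14.3% of all genes lower without overlap. That call was lost without any 1 of CDEP with OVA replicates 1 and 2 or of the 3 CDEP lungs, with log2 fold changes of -0.71 to -0.82 and limma adjusted p-values of 0.0643 to 0.105. With RNA quality, heart and fat or fibroblast covariates that call was lost too. Against saline, the differences of -0.64 ± 0.20 in NDEP lungs (adjusted p = 0.08725), -0.38 ± 0.20 in ADEP lungs (0.3754) and -0.66 ± 0.20 in CDEP lungs (0.06265) were not called by limma. They were, with saline replicate 1 left out, -0.51 ± 0.22 for NDEP (limma adjusted p = 0.2854), -0.24 ± 0.22 for ADEP (0.6452) and -0.52 ± 0.22 for CDEP (0.2318). The CDEP difference was called without saline replicate 2 (-0.86, limma adjusted p = 0.01998), and that of NDEP with OVA from OVA (-0.58 ± 0.20, 0.1679) was called without NDEP with OVA replicate 2 (-0.83, 0.01694).

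Biglycan is close kin to decorin, binds collagen and TGF-beta, and is an activator of Tlr2 and Tlr4 when set free from matrix. Without OVA, Bgn was 11.85, 11.76 and 11.61 log2 in NDEP lungs, 11.22, 11.66 and 11.36 in ADEP lungs and 11.52, 11.34 and 11.59 in CDEP lungs, against 11.95, 11.72 and 11.73 in saline lungs. With OVA it was 11.20, 11.48 and 11.51 log2 in NDEP lungs, 11.82, 11.70 and 11.62 in ADEP lungs and 11.33, 11.38 and 11.34 in CDEP lungs, against 11.60, 11.90 and 11.45 in OVA lungs. The spread was small, 0.76 log2 between the lowest and the highest of the 24 lungs, and the 3 CDEP with OVA lungs sat close together below all OVA lungs. ADEP and CDEP lungs lay below all saline lungs, and NDEP lungs overlapped them. In the order of group means, saline, NDEP, ADEP with OVA, OVA, CDEP, ADEP, NDEP with OVA and CDEP with OVA, the arrays of all 7 neighbouring pairs overlapped.

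No pairwise comparison of Bgn passed limma's threshold. The largest differences from a control were -0.39 ± 0.12 for ADEP against saline (adjusted p = 0.1093), -0.32 ± 0.12 for CDEP against saline (0.1381) and -0.30 ± 0.12 for CDEP with OVA against OVA (0.1955). Without ADEP replicate 2, which at 11.66 log2 was the ADEP lung nearest to saline, the ADEP difference was -0.52 with a limma adjusted p of 0.03968. Without saline replicate 1 the differences from saline were -0.31 ± 0.14 for ADEP (limma adjusted p = 0.3018), -0.24 ± 0.14 for CDEP (0.3702) and 0.01 ± 0.14 for NDEP (0.9806).

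Lumican is a keratan sulfate proteoglycan of the class II SLRPs that spaces collagen fibrils and can present bacterial lipopolysaccharide to Cd14. Without OVA, Lum was 6.47, 6.53 and 6.74 log2 in NDEP lungs, 6.91, 7.03 and 6.88 in ADEP lungs and 7.02, 6.61 and 6.41 in CDEP lungs, against 7.85, 6.62 and 7.21 in saline lungs. With OVA it was 6.17, 6.56 and 6.31 log2 in NDEP lungs, 7.08, 6.82 and 6.44 in ADEP lungs and 5.80, 5.96 and 6.20 in CDEP lungs, against 6.86, 6.90 and 6.68 in OVA lungs. The 3 saline lungs spread over more than the difference between most groups, and all particle groups overlapped them. With OVA the controls were tight, and all NDEP and all CDEP lungs lay below them. Group means ran saline, ADEP, OVA, ADEP with OVA, CDEP, NDEP, NDEP with OVA and CDEP with OVA, and the arrays of all 7 neighbouring pairs overlapped.

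Lum fell in CDEP with OVA lungs, which averaged 5.99 ± 0.20 log2, against 6.81 ± 0.12 in OVA lungs (SD, n = 3 each), a log2 fold change of -0.82 ± 0.21 (SE, limma adjusted p = 0.01921). The call was lost without OVA replicate 1 (-0.80, limma adjusted p = 0.0560), OVA replicate 2 (-0.78, 0.0953), CDEP with OVA replicate 1 (-0.73, 0.0861) or CDEP with OVA replicate 2 (-0.81, 0.0839). With heart and fat, fibroblast or leukocyte marker covariates the call was lost too. The NDEP with OVA difference from OVA was -0.46 ± 0.21 (limma adjusted p = 0.3618), although no arrays overlapped. NDEP with OVA had 2 members that did not overlap OVA, Lum and Ogn, against 6.76% of all genes lower without overlap. By limma it had 0 members called, where 2.07% of all genes were called, and 4 at an unadjusted p under 0.05, against 11.6% of all genes. ADEP with OVA against OVA had 0 called, where 0.686% of all genes were called, 0 at an unadjusted p under 0.05, against 11.4% of all genes, and 1 member without overlap, Dcn (-0.32 ± 0.20), against 6.94% of all genes. CDEP with OVA lungs were -0.69 ± 0.21 from CDEP lungs (limma adjusted p = 0.06224) and -0.79 ± 0.21 from ADEP with OVA lungs (0.05312), both without overlap and both short of the threshold. Against saline, the differences were -0.65 ± 0.21 for NDEP (adjusted p = 0.0959), -0.29 ± 0.21 for ADEP (0.5601) and -0.55 ± 0.21 for CDEP (0.1305) by limma. Without saline replicate 2, the lowest saline lung, these became -0.95 for NDEP (limma adjusted p = 0.006315) and -0.85 for CDEP (0.01219). Without saline replicate 1, the highest saline lung, the differences were -0.34 for NDEP (limma adjusted p = 0.4297), 0.03 for ADEP (0.9699) and -0.24 for CDEP (0.5481), so the ADEP difference turned its sign.

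Fibromodulin binds collagen type I and takes part in its cross-linking, and its group means spanned the smallest range of the 6 (0.29 log2). Without OVA, Fmod was 6.59, 6.55 and 6.29 log2 in NDEP lungs, 6.68, 6.63 and 6.57 in ADEP lungs and 6.36, 6.51 and 6.49 in CDEP lungs, against 6.79, 6.80 and 6.52 in saline lungs. With OVA it was 6.25, 6.73 and 6.97 log2 in NDEP lungs, 6.80, 6.70 and 6.58 in ADEP lungs and 6.63, 6.23 and 6.59 in CDEP lungs, against 6.75, 6.88 and 6.60 in OVA lungs. CDEP lungs lay just below all saline lungs, and every other particle group overlapped its control. Group means ran OVA, saline, ADEP with OVA, NDEP with OVA, ADEP, CDEP with OVA, NDEP and CDEP, and the arrays of all 7 neighbouring pairs overlapped. Limma called no comparison of Fmod, and the differences from the particle controls ran from -0.26 ± 0.14 for CDEP with OVA (adjusted p = 0.3336) to -0.05 ± 0.14 for ADEP with OVA (0.934). The interval of the CDEP difference from saline, -0.54 to 0.04 (95% confidence), includes 0. The differences from saline, with saline replicate 1 left out, were -0.19 for NDEP (limma adjusted p = 0.6481), -0.04 for ADEP (0.9439) and -0.21 for CDEP (0.5328).

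Prelp binds heparan sulfate and collagen and anchors basement membranes to the connective tissue below. Without OVA, Prelp was 9.97, 9.91 and 9.80 log2 in NDEP lungs, 9.13, 9.92 and 9.48 in ADEP lungs and 9.68, 9.63 and 9.82 in CDEP lungs, against 10.45, 10.28 and 10.10 in saline lungs. With OVA it was 9.44, 10.16 and 10.00 log2 in NDEP lungs, 10.29, 10.11 and 9.82 in ADEP lungs and 9.61, 9.83 and 9.67 in CDEP lungs, against 9.82, 10.23 and 9.69 in OVA lungs. Without OVA all 9 particle lungs lay below all 3 saline lungs. With OVA every particle group overlapped the OVA lungs. Group means ran saline, ADEP with OVA, OVA, NDEP, NDEP with OVA, CDEP, CDEP with OVA and ADEP, and the arrays of all 7 neighbouring pairs overlapped.

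Prelp fell in ADEP lungs, which averaged 9.51 ± 0.40 log2, against 10.28 ± 0.18 in saline lungs (SD, n = 3 each), a log2 fold change of -0.77 ± 0.18 (SE, limma adjusted p = 0.02685). It was the only member called there, where 1.65% of all genes were called, and 3 members did not overlap saline (Bgn, Prelp and Ogn), against 8.94% of all genes lower without overlap. The call was lost without saline replicate 1 (-0.69, limma adjusted p = 0.138), ADEP replicate 1 (-0.58, 0.185) or ADEP replicate 3 (-0.76, 0.133). With heart and fat, fibroblast or leukocyte marker covariates the call was lost too. The differences of NDEP and CDEP from saline, without saline replicate 1, were -0.30 (limma adjusted p = 0.5299) and -0.48 (0.2258). With OVA the ADEP difference had the other sign, 0.16 ± 0.18 against OVA lungs (limma adjusted p = 0.7913). The difference between these effects, the ADEP by OVA interaction, was 0.93 ± 0.25 (95% interval 0.41 to 1.45) and was not called (limma adjusted p = 0.2298), nor without saline replicate 1 (0.84 ± 0.27, 0.2534). Of the 6 members limma called 0 in that interaction, where it called 0.0242% of all genes. At an unadjusted p under 0.05 there were 2, Prelp and Bgn (0.46 ± 0.17, limma adjusted p = 0.3719), against 10.4% of all genes.

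Osteoglycin, also named mimecan, is a class III SLRP, and in mice it takes part in setting collagen fibril thickness. Without OVA, Ogn was 10.00, 10.34 and 9.78 log2 in NDEP lungs, 9.62, 10.43 and 10.20 in ADEP lungs and 10.29, 10.16 and 9.74 in CDEP lungs, against 11.34, 10.61 and 10.67 in saline lungs. With OVA it was 9.88, 10.55 and 10.33 log2 in NDEP lungs, 10.69, 10.30 and 10.04 in ADEP lungs and 10.00, 10.24 and 10.60 in CDEP lungs, against 10.67, 11.15 and 10.58 in OVA lungs. Without OVA all 9 particle lungs lay below all 3 saline lungs. With OVA the NDEP lungs lay below all OVA lungs. The highest ADEP lung (10.69) lay above the OVA lungs at 10.67 and 10.58, and the highest CDEP lung (10.60) just above the lowest OVA lung. Group means ran saline, OVA, ADEP with OVA, CDEP with OVA, NDEP with OVA, ADEP, CDEP and NDEP, and the arrays of all 7 neighbouring pairs overlapped.

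Ogn fell in CDEP lungs, which averaged 10.07 ± 0.29 log2, against 10.87 ± 0.40 in saline lungs (SD, n = 3 each), a log2 fold change of -0.81 ± 0.23 (SE, limma adjusted p = 0.0495). It was the only member called there, where 4.04% of all genes were called, while 5 members did not overlap saline, against 12.1% of all genes lower without overlap. The call stood at the threshold. It was lost without saline replicate 1 (-0.58, limma adjusted p = 0.231), saline replicate 3 (-0.91, 0.0661) or any 1 CDEP lung (-0.65 to -0.92, 0.0720 to 0.195). With RNA quality, fibroblast or leukocyte covariates the call was lost too. Ogn measured -0.84 ± 0.23 in NDEP lungs against saline (limma adjusted p = 0.05268) and -0.79 ± 0.23 in ADEP lungs (0.08357), which were not called. These were, with saline replicate 1 left out, -0.61 ± 0.24 for NDEP (limma adjusted p = 0.2480) and -0.56 ± 0.24 for ADEP (0.3018). NDEP against saline had 0 members called by limma, where 2.7% of all genes were called, and 4 with an unadjusted p under 0.05, against 15.5% of all genes. There Prelp and Ogn were the 2 members without overlap, against 6.61% of all genes lower without overlap. Without saline replicate 2, limma called 3 members there, Dcn (-0.85), Lum (-0.95) and Ogn (-0.97), and without NDEP replicate 2 it called Ogn (-0.99).

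To ask what each particle did over both OVA states, its 6 lungs were set against the 6 lungs without particles (3 saline and 3 OVA), as the mean of both differences. In CDEP lungs Dcn, Lum, Bgn and Ogn fell, and Prelp and Fmod measured below their controls without passing the test. NDEP lungs had lower Dcn, Lum and Ogn, and ADEP lungs had lower Ogn. Ogn was thus called for all 3 particles. The 3 comparisons share the saline and OVA arrays, so they are not independent of each other.

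In CDEP lungs Dcn averaged 8.94 log2, against 9.71 in lungs without particles, a log2 fold change of -0.77 ± 0.14 (SE, limma adjusted p = 0.001028), and all 6 CDEP lungs were below the lowest lung of their own control. Lum averaged 6.33 against 7.02 log2 (-0.69 ± 0.15, limma adjusted p = 0.0033), with 5 of 6 CDEP lungs below the lowest of their own control. Bgn changed less, at 11.42 against 11.73 log2 (-0.31 ± 0.09, limma adjusted p = 0.02398), with 6 of 6 lungs below the lowest of their own control. Taken singly, 12.1% of all genes lay lower without overlap for CDEP against saline and 11.6% for CDEP with OVA against OVA. The share of all genes with such counts over both OVA states was not taken. Ogn averaged 10.17 against 10.84 log2 (-0.66 ± 0.16, limma adjusted p = 0.01049). Prelp (-0.39 ± 0.13, adjusted p = 0.05431) and Fmod (-0.26 ± 0.10, 0.1111) were not called, though Prelp was called without OVA replicate 3 (-0.44, limma adjusted p = 0.04013) or saline replicate 3 (-0.43, 0.04725). That makes 4 of 6 members lower, with a median log2 fold change of -0.53 over the 6, where 3.19% of all genes were called lower, 9.05% in either direction, and the median of all genes was -0.02. Without saline replicate 1 the values were -0.70 for Dcn (limma adjusted p = 0.003962), -0.53 for Lum (0.008707), -0.55 for Ogn (0.03754) and -0.27 for Bgn (0.06654). The Bgn call was also lost without OVA replicate 2 (-0.25, limma adjusted p = 0.0927) or CDEP replicate 2 (-0.27, 0.0703).

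In NDEP lungs Ogn averaged 10.15 log2, against 10.84 in lungs without particles (-0.69 ± 0.16, limma adjusted p = 0.01009), and it was the one member whose 6 particle lungs all lay below all 6 lungs without particles, against 0.395% of all genes lower in that way. Dcn averaged 9.10 against 9.71 log2 (-0.61 ± 0.14, limma adjusted p = 0.008301). Lum averaged 6.46 against 7.02 log2 (-0.56 ± 0.15, limma adjusted p = 0.02051). Bgn (-0.16 ± 0.09, adjusted p = 0.3416), Fmod (-0.16 ± 0.10, 0.4191) and Prelp (-0.22 ± 0.13, 0.3836) were not called by limma. These 3 of 6 members called lower compare with 1.44% of all genes called lower and 6.14% called in either direction. The median over the 6 members was -0.39, and that of all genes was 0.01. Without saline replicate 1 the values were -0.54 for Dcn (limma adjusted p = 0.0297), -0.58 for Ogn (0.0371) and -0.40 for Lum (0.0640). The Lum call was also lost without OVA replicate 2 (-0.53, limma adjusted p = 0.0535), NDEP with OVA replicate 1 (-0.51, 0.0565) or NDEP with OVA replicate 3 (-0.55, 0.0524).

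In ADEP lungs Ogn averaged 10.21 log2, against 10.84 in lungs without particles (-0.62 ± 0.16, limma adjusted p = 0.03786). The other 5 members ran from -0.35 ± 0.14 for Dcn (limma adjusted p = 0.2127) to -0.07 ± 0.10 for Fmod (0.8337). The 1 of 6 members called lower compares with 0.597% of all genes called lower and 3.03% in either direction, and the median over the 6 was -0.23, against 0.01 over all genes. The Ogn call was lost without saline replicate 1 (-0.51, limma adjusted p = 0.128), OVA replicate 2 (-0.54, 0.125), ADEP replicates 1 or 3 (-0.51, 0.125 and -0.65, 0.0654) and ADEP with OVA replicates 2 or 3 (-0.61, 0.0720 and -0.55, 0.108).

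**Figure D2:**
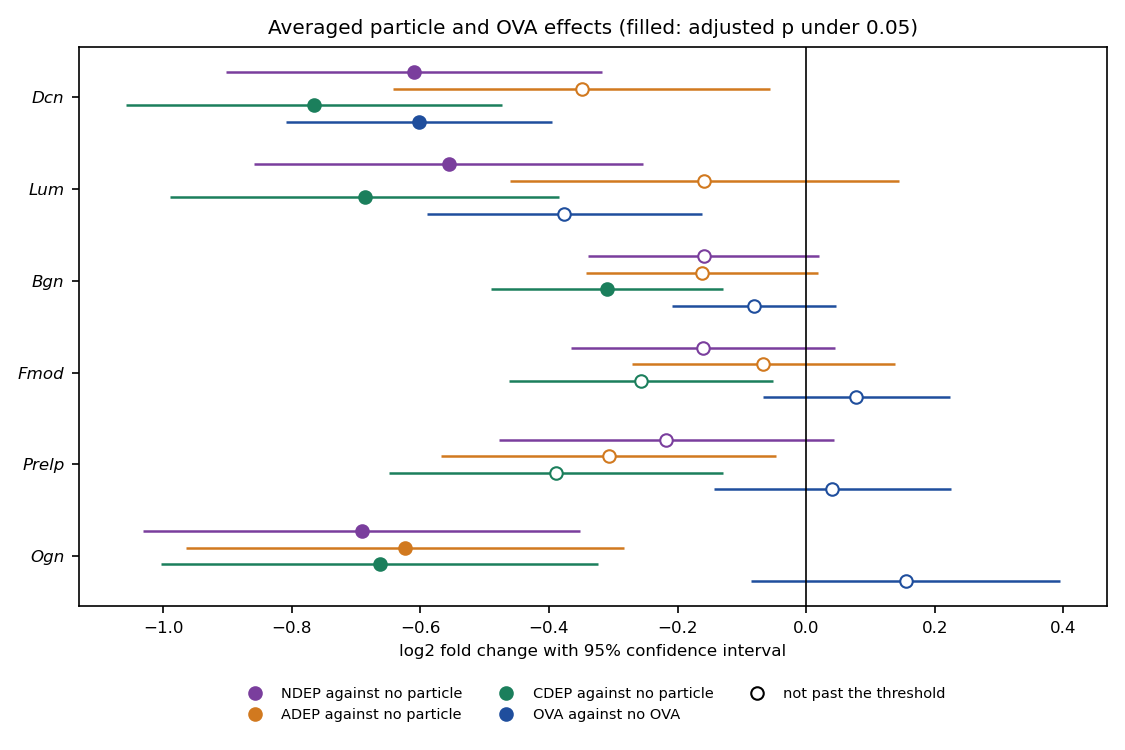
Log2 fold change of each SLRP gene for NDEP, ADEP and CDEP against no particle, averaged over both OVA states, and for OVA against no OVA, averaged over the 4 particle states, with 95% confidence intervals. Filled points have a limma adjusted p under 0.05, and Ogn is filled for the 3 particles but lies at 0.15 for OVA, while Dcn is filled for NDEP, CDEP and OVA.

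The particles were also set against each other, with and without OVA. Limma called no member in any of these 6 comparisons. Without OVA, 0 genes of the series were called for CDEP against ADEP or CDEP against NDEP and 0.00807% for ADEP against NDEP. At an unadjusted p under 0.05 there were 0 members for CDEP against ADEP, 1 for CDEP against NDEP (Bgn, -0.26 ± 0.12) and 2 for ADEP against NDEP (Bgn, -0.33 ± 0.12, and Prelp, -0.39 ± 0.18), against 6.68%, 5.92% and 4.56% of all genes in the same order. With OVA, CDEP lungs measured lower than ADEP lungs for all 6 members, with 4 at an unadjusted p under 0.05, against 21.2% of all genes, where 1.43% were called. In that comparison 3 members did not overlap (Dcn, Lum and Bgn), against 12.9% of all genes lower without overlap. The differences were -0.79 ± 0.21 for Lum, -0.55 ± 0.20 for Dcn (limma adjusted p = 0.1278), -0.37 ± 0.12 for Bgn (0.1117) and -0.37 ± 0.18 for Prelp (0.2329). CDEP with OVA against NDEP with OVA had 0 members at an unadjusted p under 0.05 and ADEP with OVA against NDEP with OVA had 2, Lum (0.43 ± 0.21) and Bgn (0.32 ± 0.12), where 7.33% and 10.8% of all genes were at an unadjusted p under 0.05 and 0.00807% and 0.0161% were called. The interval of the CDEP minus NDEP difference of Dcn with OVA, -0.71 to 0.12, includes 0.

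Dcn was lower with OVA. Averaged over the 4 particle states, Dcn was 8.98 log2 in the 12 OVA lungs and 9.58 log2 in the 12 lungs without OVA, a log2 fold change of -0.60 ± 0.10 (SE, limma adjusted p = 0.001095). The difference was below 0 within each particle state, at -0.51 ± 0.20 in NDEP, -0.52 ± 0.20 in ADEP, -0.80 ± 0.20 in CDEP and -0.58 ± 0.20 without particles. In 11 of 12 OVA lungs Dcn lay below the lowest lung of the matching group without OVA, a count that was not taken over all genes. The call held without any 1 of the 24 arrays, with log2 fold changes of -0.54 to -0.67 and a highest limma adjusted p of 0.003168.

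Lum measured -0.38 ± 0.10 with OVA, just short of the threshold (limma adjusted p = 0.0522). Of 12 OVA lungs 11 lay below the mean of the matching group, again not counted over all genes. Lum passed without NDEP with OVA replicate 2 (-0.40, adjusted p = 0.04006), ADEP with OVA replicate 1 (-0.41, 0.03361), CDEP with OVA replicate 3 (-0.40, 0.04339), CDEP replicate 3 (-0.41, 0.04226) or saline replicate 2 (-0.45, 0.005389). The other 4 members were not called, at -0.08 ± 0.06 for Bgn (adjusted p = 0.5604), 0.04 ± 0.09 for Prelp (0.8711), 0.08 ± 0.07 for Fmod (0.6378) and 0.15 ± 0.12 for Ogn (0.5527). The 95% intervals of Bgn (-0.21 to 0.05), Prelp (-0.14 to 0.23), Fmod (-0.07 to 0.22) and Ogn (-0.09 to 0.40) do not reach the fall of Dcn. The 1 of 6 members called compares with 2.47% of all genes called in either direction and 1.56% called lower.

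Whether OVA changed the members unequally was tested directly, on the log2 ratio of each pair of members within a lung, by an exact two-sided permutation test of the OVA labels within the 4 particle states (160000 arrangements, 15 pairs, Benjamini-Hochberg adjustment over the pairs). The ratio of Dcn to Ogn fell by 0.76 with OVA (exact p = 1.25e-05, the smallest these arrangements can give, adjusted p = 0.000188). The ratio of Dcn fell also against Fmod (-0.68, exact adjusted p = 0.000375), Prelp (-0.64, 0.000984), Bgn (-0.52, 0.00353) and Lum (-0.23, 0.0307). Lum in turn fell against Ogn (-0.53, exact adjusted p = 0.000984), Fmod (-0.45, 0.00472), Prelp (-0.42, 0.0134) and Bgn (-0.30, 0.0385). The 6 ratios among Bgn, Fmod, Prelp and Ogn ran from -0.24 to 0.04, with exact adjusted p-values of 0.0655 to 0.749. These tests use the same lungs as the fits above and were not among the planned tests, so they are no separate support for the fall of Dcn. Averaged over the particle states, Dcn and Lum, the neighbours on chromosome 10, thus had lower ratios to each of the other 4 members with OVA. The ratio of Lum to Bgn fell in 3 of the 4 states, and their other ratios to these members fell in all 4.

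In single comparisons OVA called few members. OVA against saline had 0 members called by limma, where 0% of all genes were called, with 1 member at an unadjusted p under 0.05 (Dcn, -0.58 ± 0.20), against 6.6% of all genes. That difference was, with saline replicate 1 left out, -0.44 ± 0.22 (limma adjusted p = 0.5173). Dcn was also the 1 member without overlap there, against 6.61% of all genes lower without overlap. NDEP with OVA against NDEP had 0 called and 2 at an unadjusted p under 0.05, Dcn (-0.51 ± 0.20) and Bgn (-0.34 ± 0.12), where 9.64% of all genes were at such a p and limma called 0.274%. ADEP with OVA against ADEP had 0 called and 3 at an unadjusted p under 0.05, Dcn (-0.52 ± 0.20), Bgn (0.30 ± 0.12) and Prelp (0.57 ± 0.18), where 9.95% of all genes were at such a p and limma called 0.0646%. Prelp measured 0.57 with OVA in ADEP lungs and -0.37 with OVA without particles. NDEP by OVA and CDEP by OVA had 0 members called and 0 at an unadjusted p under 0.05, where 6.16% and 12.7% of all genes were at such a p and limma called 0.0242% and 0.371%.

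**Figure D3:**
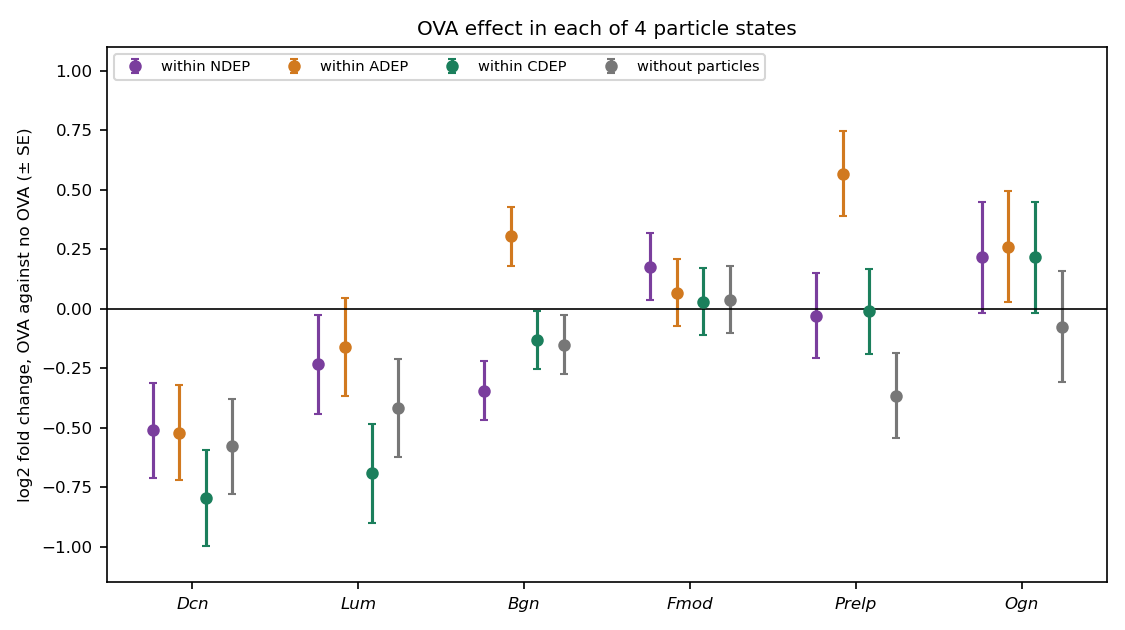
Log2 fold change with OVA against without OVA (± SE) of each SLRP gene within NDEP, ADEP and CDEP lungs and without particles. Dcn lies below 0 in all 4 states, between -0.51 and -0.80, and Ogn lies near or above 0, while Bgn and Prelp spread to both sides.

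Once the group means were taken away, members still moved together from lung to lung. Over the 24 arrays the Pearson correlation of deviations from the group means was 0.92 for Bgn and Prelp, 0.74 for Prelp and Ogn, 0.72 for Dcn and Lum, 0.70 for Bgn and Ogn and 0.69 for Lum and Ogn. Dcn and Bgn, the closest relatives by sequence class, gave 0.14, and Lum and Fmod gave 0.10. The neighbours Prelp and Fmod gave 0.51. These are descriptions over 24 arrays that share RNA quality, dissection and normalization, and they carry no test. All correlations given here and below include saline replicate 1. Lum spread most within the saline lungs (SD 0.62 log2, against 0.08 to 0.32 in the other groups), so its correlations lean on those lungs.

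For each member the 3 genes of most like deviations were taken from 10054 candidates. Prelp was most like Itga8, an integrin subunit of lung fibroblasts and smooth muscle (r = 0.94), Twsg1, a BMP-binding protein (0.93), and Ptgis, the prostacyclin synthase (0.92). Bgn was most like Prelp (0.92), Cst3, the protease inhibitor cystatin C (0.88), and Ptgis (0.87). Ogn was most like Pltp, the phospholipid transfer protein (0.90), Cavin2, a caveola protein (0.89), and Pcolce2, which binds procollagen (0.89). Lum was most like Cdh11, a cadherin of connective tissue cells (0.90), Vamp3 (0.88) and Rtn4 (0.88). Dcn was most like Rps20, a ribosomal protein (0.83), Col14a1, a collagen that sits on fibrils (0.83), and Pdia5, a disulfide isomerase (0.82). Fmod was most like Cldn1 (0.81), Fbln1 (0.79) and Ctsf (0.77). Being the highest of so many candidates, these values carry no test. Levels with the group means left in gave r = -0.40 for Pdia5 with Dcn. They gave 0.11 for Vamp3 and 0.12 for Rtn4 with Lum. For the other genes named they ran from 0.47 (Fbln1 with Fmod) to 0.92 (Twsg1 with Prelp).

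**Figure D4:**
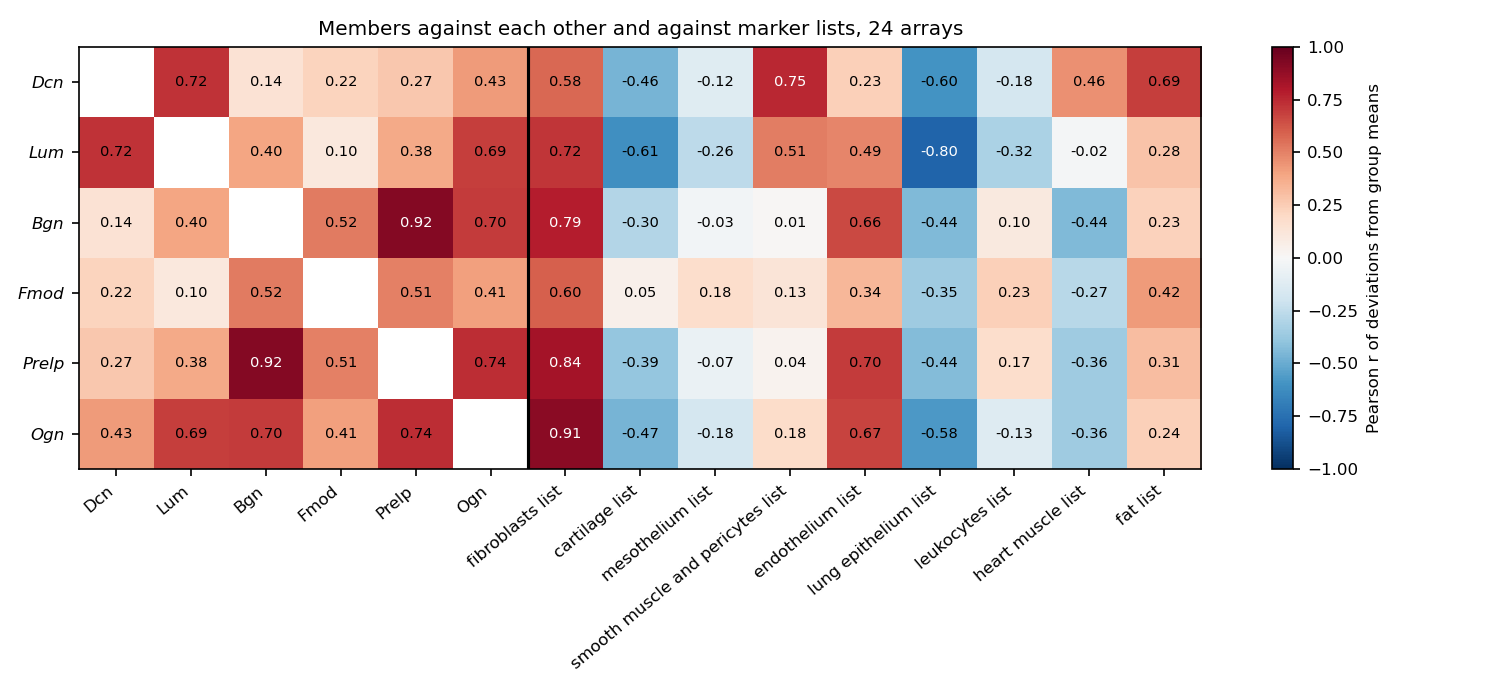
Pearson correlation over 24 arrays of deviations from the 8 group means, of each SLRP gene with the others (left of the line) and with the mean log2 level of 9 marker gene lists (right of the line). Bgn and Prelp are the most alike pair (0.92), Ogn follows the fibroblast list (0.91), and Dcn follows the smooth muscle (0.75) and fat (0.69) lists. Prelp also follows the endothelium list (0.70), and Lum runs against the lung epithelium list (-0.80).

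The other 9 probe sets of the members were read in a fit of all probe sets. Dcn and Lum have 1 probe set each, so their results have no such check. In the comparisons where the chosen probe set was called, the other probe sets of Bgn, Prelp and Ogn gave 7 results, all 7 of the same sign, and 3 of them were called. Those 3 were the second Ogn probe set averaged over both OVA states, at -0.68 ± 0.13 for NDEP (limma adjusted p = 0.001921), -0.62 ± 0.13 for ADEP (0.009831) and -0.64 ± 0.13 for CDEP (0.002895). It was called in single comparisons where the first was not, at -0.81 ± 0.18 for ADEP against saline (limma adjusted p = 0.0317), -0.73 ± 0.18 for NDEP with OVA against OVA (0.04427) and -0.78 ± 0.18 for CDEP with OVA against OVA (0.01547). For CDEP against saline it measured -0.51 ± 0.18 and was not called (0.1226). The second Prelp probe set measured -0.66 ± 0.26 for ADEP against saline (limma adjusted p = 0.233). The other Bgn probe sets measured -0.14 ± 0.14 and -0.18 ± 0.08 for CDEP averaged over both OVA states, neither of them called. Of the 5 other Fmod probe sets 1 was dim on all 24 arrays, and 1 whose name marks it as able to bind related sequences was called lower for CDEP against saline (-0.80 ± 0.22, limma adjusted p = 0.03775) and for CDEP averaged (-0.52 ± 0.15, 0.03686).

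Genes around the SLRPs were read from lists in the same fits, mainly for CDEP averaged over both OVA states. There 9.05% of all genes were called in either direction and 3.19% lower, the share to hold beside each list count below. Some list counts lie near it. Of 6 other SLRPs measured, Omd, the neighbour of Ogn, fell (-0.37 ± 0.08, limma adjusted p = 0.00633), and 5 were not called. Kera and Epyc, the neighbours of Dcn and Lum, were dim on all 24 arrays. Of 17 fibrillar collagens and their partners, 1 rose and 4 fell, with a median of -0.08. Col14a1 (-0.66 ± 0.15, limma adjusted p = 0.00536), Eln, the elastin gene (-0.51 ± 0.11, 0.00384), and Dpt, dermatopontin, which binds decorin (-0.45 ± 0.11, 0.0107), fell. Thbs1, thrombospondin (0.56 ± 0.14, limma adjusted p = 0.0120), rose. The main fibrillar collagens were not among them, at -0.05 ± 0.10 for Col1a1 (adjusted p = 0.8206) and 0.13 ± 0.09 for Col3a1 (0.4131).

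Enzymes that build the sugar chains were mostly not called. Of 18 genes of chondroitin and dermatan sulfate synthesis 1 fell, Chst15, a sulfotransferase (-0.47 ± 0.10, limma adjusted p = 0.00364), and of 10 genes of keratan sulfate synthesis 0 were called by limma for CDEP, 1 rose and 1 fell for NDEP. For NDEP averaged, 6.14% of all genes were called in either direction and 1.44% lower. Of 14 genes of collagen processing 3 rose and 0 fell, Serpinh1, the collagen chaperone (0.60 ± 0.10, limma adjusted p = 0.000467), P4hb (0.34 ± 0.08, 0.00402) and Plod1 (0.28 ± 0.09, 0.0477). Of 18 other proteoglycans 1 rose and 3 fell, among them Sdc1 (0.31 ± 0.08, limma adjusted p = 0.0144) and Gpc3 (-0.41 ± 0.09, 0.00441).

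Among 17 genes of receptors that soluble decorin, biglycan or lumican bind and of their signalling, 4 rose and 0 fell, namely Cd14 (0.96 ± 0.16, limma adjusted p = 0.000453), Tlr2 (0.49 ± 0.10, 0.00214), Cd44 (0.48 ± 0.11, 0.00546) and Pycard (0.55 ± 0.09, 0.000367), an adaptor of the inflammasome. Of 19 proteases and inhibitors that act on matrix proteoglycans 6 rose and 2 fell. Timp1, an inhibitor of metalloproteinases (2.39 ± 0.25, limma adjusted p = 1.37e-06), Mmp12, the macrophage elastase (1.36 ± 0.20, 7.14e-05), and Ctsk, cathepsin K (0.98 ± 0.16, 0.000305), rose, and Timp2 (-0.30 ± 0.06, 0.0033) fell. Of 17 genes of the TGF-beta system 1 rose and 3 fell, Tgfbi (0.74 ± 0.12, limma adjusted p = 0.000291), Ltbp1, which holds latent TGF-beta in the matrix (-0.46 ± 0.09, 0.00147), Ltbp3 (-0.30 ± 0.09, 0.0279) and Tgfb3 (-0.25 ± 0.07, 0.0320). These counts stand beside 9.05% of all genes called in either direction and 3.19% called lower.

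With OVA averaged over the particle states, 3 of the 17 collagens and partners fell and 0 rose, Col1a1 (-0.45 ± 0.07, limma adjusted p = 0.000869), Dpt (-0.37 ± 0.08, 0.00938) and Col5a1 (-0.25 ± 0.06, 0.0290). Of the 18 other proteoglycans 1 fell, Vcan, versican (-0.30 ± 0.06, limma adjusted p = 0.00927). Of the 17 receptors and the 17 TGF-beta genes 0 were called by limma with OVA. Over all genes 2.47% were called in either direction with OVA and 1.56% lower.

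Marker genes of several cell types moved with the SLRPs. The fibroblast list holds Col14a1 and Dpt, which were also counted among the collagens and partners above, so those counts are not separate. For CDEP averaged over both OVA states 11 of 17 fibroblast markers fell and 0 rose, with a median of -0.35, among them Scara5 (-1.06 ± 0.14, limma adjusted p = 3.78e-05), Fbln1 (-0.69 ± 0.09, 3.66e-05), Clec3b (-0.62 ± 0.10, 0.000367) and Serpinf1 (-0.44 ± 0.06, 9.23e-05). Pdgfra, the defining fibroblast receptor, measured -0.25 ± 0.15 (limma adjusted p = 0.3439) and was dim on no array. The mean log2 level of the fibroblast list was 9.03 to 9.10 on CDEP arrays, against 9.27 to 9.66 on saline arrays, and 8.73 to 8.90 on CDEP with OVA arrays, against 9.12 to 9.40 on OVA arrays. Of 19 heart muscle markers 13 fell and 0 rose (median -0.68), of 13 smooth muscle and pericyte markers 5 fell and 0 rose (median -0.22), and of 10 fat markers 2 fell and 0 rose (median -0.36). Of 11 leukocyte markers 7 rose and 0 fell (median 0.62). Of 14 lung epithelium markers 4 rose and 2 fell (median 0.06), and of 6 mesothelium markers 1 rose (median -0.02). Of 12 cartilage and 14 endothelium markers 0 were called by limma. Over all genes 9.05% were called in either direction in this comparison and 3.19% lower.

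For NDEP averaged over both OVA states 6 of 17 fibroblast markers (median -0.31) and 10 of 19 heart markers (median -0.50) fell, 7 of 11 leukocyte markers rose (median 0.67), and no marker of these 3 lists went the other way past the test. For ADEP the same lists had 4 fibroblast markers lower (median -0.28), 0 heart markers called by limma (median -0.18) and 3 leukocyte markers higher (median 0.42). Over all genes 6.14% were called in either direction for NDEP (1.44% lower) and 3.03% for ADEP (0.597% lower).

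With OVA averaged, 10 of 19 heart markers fell and 0 rose (median -0.42), 7 of 17 fibroblast markers fell and 0 rose (median -0.02), and limma called 0 of 10 fat markers (median -0.14) and 0 of 11 leukocyte markers (median 0.07). Over all genes 2.47% were called there in either direction and 1.56% lower. The mean log2 level of the heart list was 7.01 to 7.40 on CDEP with OVA arrays and 7.83 to 7.96 on OVA arrays, and 7.52 to 7.81 on CDEP arrays and 7.90 to 8.60 on saline arrays. Over the 24 arrays the deviations of Dcn followed the smooth muscle (r = 0.75), fat (0.69), fibroblast (0.58) and heart (0.46) lists. Those of Ogn followed the fibroblast list (0.91), as did Prelp (0.84), Bgn (0.79), Lum (0.72) and Fmod (0.60).

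The averaged effects were fitted again with list scores as covariates. With the heart and fat scores, the CDEP effect on Dcn was -0.41 ± 0.16 (limma adjusted p = 0.1654) and that on Lum -0.67 ± 0.21 (0.06584), neither called, while Ogn (-0.90 ± 0.19, 0.007995), Prelp (-0.55 ± 0.14, 0.0229) and Bgn (-0.45 ± 0.10, 0.0123) were called. The OVA effect on Dcn was -0.39 ± 0.12 in that fit (limma adjusted p = 0.1846). With the fibroblast score, the CDEP effect was -0.36 ± 0.18 for Dcn (limma adjusted p = 0.2581), -0.17 ± 0.16 for Lum (0.5917), -0.01 ± 0.10 for Bgn (0.9726) and 0.08 ± 0.12 for Ogn (0.7434). The OVA effect on Dcn stayed called in that fit (-0.47 ± 0.09, limma adjusted p = 0.004645), and that on Ogn was called higher (0.40 ± 0.06, 0.0006968). With the leukocyte score the CDEP effect on Dcn was -0.64 ± 0.21 (limma adjusted p = 0.1676) and the OVA effect on Dcn -0.60 ± 0.10 (0.001082). With the Gapdh and Actb RNA quality differences as covariates, Dcn measured -0.75 ± 0.15 for CDEP (limma adjusted p = 0.002388) and -0.63 ± 0.11 for OVA (0.001782). The scores themselves differed between the groups, so a covariate fit does not measure how much of a member's change came with a cell type, and that part in the results was not tested.

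**Figure D5:**
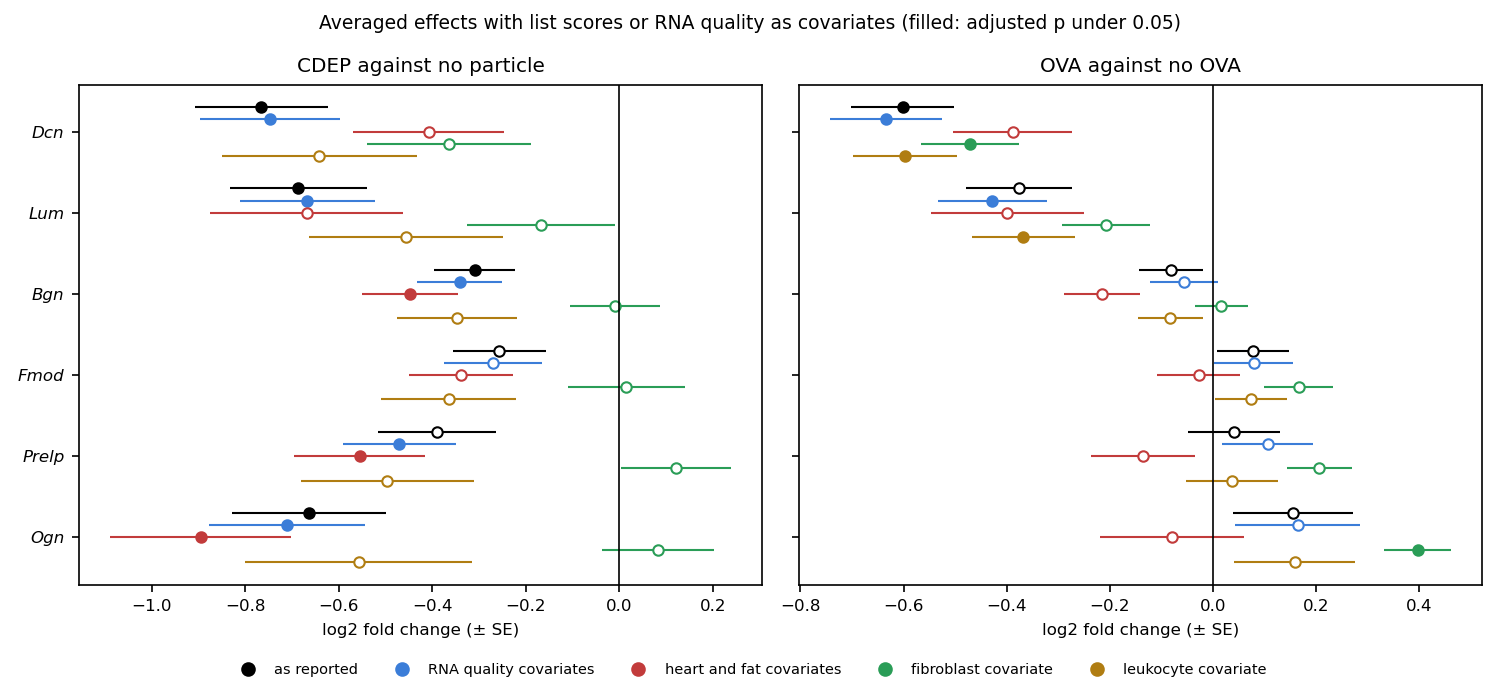
Log2 fold change (± SE) of each SLRP gene for CDEP against no particle (left) and OVA against no OVA (right), as reported and with RNA quality, heart and fat, fibroblast or leukocyte covariates. Filled points have a limma adjusted p under 0.05, and with the fibroblast covariate the CDEP values of Bgn, Fmod, Prelp and Ogn lie between -0.01 and 0.12.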

How the data were processed

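The deposited values are intensities per probe set that the authors made by RMA, which corrects background, normalizes arrays to one another and summarizes probes, as named in the submitters' processing notes; its version is not given in the sources used here. The plan took them to be log2, but the deposited intensities ran from 5.98 to 18195.5, a linear scale, so log2 was taken first. Such summaries understate the changes of weak signals.

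Of 22690 probe sets, 64 were controls, 20380 had 1 symbol, 691 had several and 1555 had none. The probe set with the highest mean per gene left 12393 genes, with no filter. limma 3.58.1 in R 4.3.3 fitted 8 group means to all 24 arrays (16 residual and 8.16 prior degrees of freedom), with two-sided moderated tests by eBayes and Benjamini-Hochberg adjustment over all genes within each of 23 comparisons, at 0.05. All adjusted p-values in the text come from limma unless a permutation test is named. Replicates are separate mice, 3 per group, marked in the titles as biological.

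The 6 members and the 18 gene lists were chosen with earlier results of these data known. Genes named beside the members are, per list, up to 4 that passed with the smallest p, a few defining markers, and for likeness the 3 highest correlations of deviations among genes that were not mostly dim. Marker list scores are mean log2 levels. The scripts were tested on simulated data.

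Alternatives were weights per array, a fit to only the groups compared, a variance trend with robust eBayes, a further quantile normalization, all probe sets, no dim genes (10381 kept), the replicate number as a block, RNA quality, heart and fat or cartilage covariates, and leaving out each array. Fibroblast and leukocyte covariates and a fit without saline replicate 1 and CDEP with OVA replicate 3, the 2 arrays of highest Gapdh difference, were added after seeing the data. Python 3.11.15 with pandas 2.3.3, numpy 2.4.6 and matplotlib 3.10.9 did the rest.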

Additional observations from a re-analysis of the deposited data

How the results depend on the processing

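Of the called members 1 turned its sign under an alternative, Ogn for CDEP averaged over both OVA states, at 0.083 with the fibroblast covariate. Counts are of the 6 members called, with 3 arrays per group setting the precision. They were 0 for NDEP, 1 for ADEP and 1 for CDEP against saline, 2 for CDEP with OVA against OVA, 1 for CDEP with OVA against CDEP, 3, 1 and 4 for NDEP, ADEP and CDEP averaged, 1 for OVA averaged and 2 by the F test. Array weights gave 3, 2 and 3 for NDEP, ADEP and CDEP against saline, 2 for OVA within CDEP, 2 for OVA averaged, 1 for CDEP with OVA against ADEP with OVA and 4 by the F test. The cartilage covariate gave 3, 2, 4, 2, 2, 1 and 5 in the same order. Without dim genes NDEP had 1 and OVA averaged 2. Quantile normalization gave NDEP 1 and CDEP 0, and all probe sets gave CDEP 0. The trended variance gave 0 for CDEP and 0 for ADEP averaged. The compared groups alone gave ADEP 0, CDEP 3, OVA within CDEP 2 and ADEP averaged 0. RNA quality gave CDEP 0, OVA within CDEP 0, OVA averaged 2 and CDEP with OVA against ADEP with OVA 1. Heart and fat covariates gave ADEP 0, CDEP 2, NDEP with OVA 2, ADEP with OVA 1 and CDEP with OVA 1 against OVA, OVA within CDEP 0, NDEP averaged 1 and OVA averaged 0. In that fit the 1 for CDEP with OVA was Bgn (-0.49, limma adjusted p = 0.04521), while Dcn and Lum were lost. Of the settings added after seeing the data, the fibroblast covariate kept OVA within CDEP at 1. That 1 was Ogn, called higher (0.68, limma adjusted p = 0.004226), while Dcn was lost. This covariate further gave ADEP 0, CDEP 0, CDEP with OVA 0, OVA within NDEP 1 (Ogn higher, 0.60, limma adjusted p = 0.02712), OVA averaged 2 (Dcn lower and Ogn higher) and 0 for each particle averaged. The leukocyte covariate gave the same 0 counts, 2 for OVA averaged, 1 for CDEP with OVA against ADEP with OVA and 1 by the F test. Without the 2 arrays of highest Gapdh difference ADEP had 0, CDEP 0, OVA within CDEP 2, ADEP averaged 0, OVA averaged 2 and CDEP with OVA against ADEP with OVA 1. By the F test the heart and fat covariates and the fibroblast covariate kept the count at 2, but Dcn and Lum were not among the 2. The share of all genes called under each of these settings is not set beside the counts. A moved count is therefore not a result about the members alone. The cause of these moves was not tested.

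Leaving out each array gave 0 to 3 for NDEP, 0 to 2 for ADEP, 0 to 3 for CDEP, 0 to 1 for NDEP with OVA and 0 to 2 for CDEP with OVA against OVA, 0 to 1 for OVA within CDEP, 2 to 3 for NDEP averaged, 0 to 1 for ADEP averaged, 3 to 5 for CDEP averaged, 1 to 2 for OVA averaged and 2 to 5 by the F test. It gave 0 to 0 for the other comparisons. The titles number the replicates but do not say whether equal numbers pair the mice. The 84 pairs of arrays with the same number had correlations of deviations from -0.32 to 0.35, 27 of them over 0.1. Their median was 0.03, against -0.01 for pairs with different numbers in different groups. Of 24 arrays 10 correlated best with an array of their own number. These values describe the arrays and cannot exclude a pairing. With the replicate block NDEP had 1 and CDEP with OVA against ADEP with OVA 1, and no other count of members called moved by over 1.5 times.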
